A study of Mus musculus with 30 samples.

Results

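Cells that switched on an IL-10 reporter were compared here with cells that did not, within cultures of type 1 regulatory (Tr1) T cells grown with interleukin 27 (IL-27). The comparison holds the 6 libraries titled as Tr1, 3 IL-10 positive and 3 IL-10 negative, out of 30 RNA-seq libraries of the study. The other 24 libraries come from 4 further polarised cultures, Th1, Th2, Th17 and pathogenic Th17 (pTh17), sorted the same way. Th1 cultures had IL-12, Th2 had IL-4, Th17 had TGF-beta 1 and IL-6, and pTh17 had IL-6, IL-1 beta and IL-23. These libraries serve here to ask whether a difference is larger in Tr1, and they enter the estimate of spread in the test. The cultures began with naive CD4 T cells from C57BL/6 double reporter mice, in which GFP marks Foxp3 and Thy1.1 marks IL-10. They were activated by 2.5 ug/ml anti-CD3 in the presence of irradiated spleen cells without CD4 cells, 6 of them for each T cell. All 6 Tr1 samples had IL-27 at 25 ng/ml and were sorted after 72 h as live (7-AAD negative) CD4 and TCR-beta positive cells without Foxp3-GFP, and then by Thy1.1. Per the labels' protocols, 2000 cells were lysed for each library, and since the protocol text describes both sorted fractions as Thy1.1 positive, compartments were taken from the titles. The titles number the Tr1 libraries 16, 17 and 18 in each compartment, and nothing in the labels says that they came from separate cultures or mice. A p-value here therefore reflects only how much libraries of the same culture and compartment vary, estimated over all 30 libraries. That variation may be technical. In bulk samples such as these, fewer cells of a type and less RNA per cell cannot be told apart.

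Tr1 cells are CD4 T cells that lack Foxp3 and restrain immune responses, chiefly through the cytokine IL-10. IL-27, made by antigen-presenting cells, signals through a receptor of Il27ra and Il6st chains to STAT proteins and is known to bring about Il10 transcription together with factors such as Maf, Prdm1 (Blimp-1), Ahr and Irf1. Tr1 cells are known for the surface markers Lag3 and CD49b (Itga2), for co-inhibitory receptors and for granzyme B.

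The 6 libraries held between 4394704 and 7800849 expected counts, and log CPM (CPM being a count relative to its library's TMM-scaled total) correlated at 0.971 to 0.9746 among IL-10 positive, 0.9777 to 0.9785 among IL-10 negative and 0.9355 to 0.9461 across compartments. IL-10 positive library 18 stood apart: its 10 top genes took 32.76% of counts against 24.64% to 29.24% in the other 5. Counts of genes called between the compartments are followed by their value without this library where that moves them by more than 1.5 times and by more than 1 gene. Named calls that are lost without it are marked. The IL-10 positive libraries also listed more genes (16911 to 17531 with a count, against 15375 to 15733). They held more counts on olfactory, vomeronasal and trace amine receptor genes, families that T cells are not known to use, a pattern noticed after the data were seen. These families summed to 2895, 2890.3 and 3698 CPM in IL-10 positive libraries 16, 17 and 18, against 1718.5, 1735 and 842.2 CPM in the negative ones. In Th1, Th2 and Th17 every positive library lay below every negative one, in pTh17 the compartments overlapped, and these 24 libraries held 411.8 to 1585 CPM. Of 98 such genes tested, 38 were called higher (38.8%, against 20.5% of all genes in the test described below) and 0 lower. With the logarithm of this summed level as a covariate in the fit, the counts were 1 and 0. The covariate sums these same gene families, so the loss of their calls was fixed in advance. Kcnq1ot1, a long nuclear RNA, moved the same way, from 7445, 7885 and 5487 CPM to 16339, 14262 and 16481 CPM, while Rn45s, the ribosomal RNA precursor, stood at 236370.0 ± 38483 and 233690.0 ± 73218 CPM (SD, n = 3); both were chosen after their values were seen. The part of this background in the results was not tested. For genes called between the compartments, counts with the covariate are given beside the gene groups where they differ by more than 1.5 times and by more than 1 gene.

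**Figure D1:**
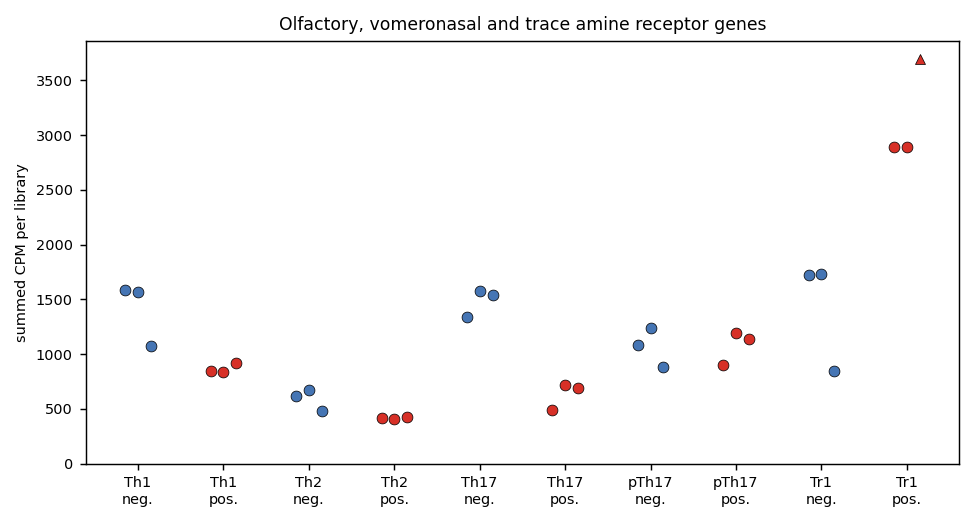
Summed CPM of olfactory, vomeronasal and trace amine receptor genes in each of the 30 libraries (vertical axis), by culture and compartment (horizontal axis; blue points IL-10 negative, red IL-10 positive, 3 libraries each). The 3 Tr1 IL-10 positive libraries sit highest, at 2890 to 3698 CPM, and the triangle is library 18.

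IL-10 positive and negative Tr1 cells differed widely, and the large differences were mostly rises in the positive cells. edgeR's quasi-likelihood test, fitted over all 30 libraries with Benjamini-Hochberg adjustment and an adjusted p threshold of 0.05, called 4377 of 12611 genes (34.7%), of which 2591 (20.5%) were higher and 1786 (14.2%) lower in IL-10 positive cells. Counts of called genes in the lists below are to be read beside these shares. The difference was at least 2-fold for 1092 higher (8.66%) and 254 lower (2.01%) genes, and at least 4-fold for 560 and 46. Of the 560 genes that rose at least 4-fold, 127 had a mean below 1 CPM and 277 a mean of 1 to 5 CPM over the 6 libraries. For 41.3% of genes the 3 positive values all lay on one side of the 3 negative ones. Without IL-10 positive library 18 the test called 1970 (15.6%) of these genes higher and 1661 (13.2%) lower; 1915 of the 2591 and 1502 of the 1786 stayed called the same way. With the covariate, 1604 and 850 did. When genes with few counts were kept in the test, the split became 2058 higher and 2340 lower.

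The IL-10 sort was visible in the transcripts. Il10 itself, on chromosome 1 from 131019845 to 131024970 of GRCm38, stood at 0, 0.568 and 0.854 CPM in IL-10 negative libraries 16, 17 and 18 and at 39.4, 53.5 and 49.2 CPM in the positive ones, or 6.47 ± 0.29 (SE) on the log2 scale with an adjusted p of 9.56e-21 in edgeR. Il10 was near 0 in every negative library, and the fitted fold of 88.5 became 153 without negative library 18. Thy1, which encodes the T cell surface protein used as the reporter, went from 97.3, 93.3 and 106 to 239.6, 249 and 291 CPM with no overlap, and its counts also include the cells' own Thy1. Foxp3, the regulator of a different regulatory lineage and the gene gated out in the sort, stood at 1.45 ± 0.736 and 1.36 ± 0.671 CPM (SD, n = 3) and was not called. Of the markers of Tr1 cells named above, Lag3 rose from 419, 419 and 430.1 to 1042, 1156 and 1172 CPM, and Itga2 stood at 1.02 ± 0.371 and 1.23 ± 0.872 CPM without a call.

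Among 38 genes listed as regulators of Il10 in T cells, 15 rose in IL-10 positive Tr1 cells (39.5%, against 20.5% of all genes). Of the same list 11 fell (28.9%, against 14.2%), or 7 with the covariate. The median log2 fold change was 0.03, against 0.05 for all genes tested. Bhlhe40, a transcription factor of activated T cells, rose from 13.4, 16.3 and 25.3 CPM to 142, 125 and 144 CPM (2.86 ± 0.12, log2 ± SE). Nfil3, a factor that acts on cytokine genes in several helper types, rose from 2.44, 2.46 and 1.71 to 15.3, 19.8 and 16.6 CPM (3.003 ± 0.28). Both differences were several times the spread within either compartment, with edgeR's adjusted p = 1.07e-21 and 4.97e-11. Prdm1, which encodes Blimp-1, went from 4.87, 3.60 and 2.85 to 19.8, 15.4 and 17.3 CPM. Maf, a direct activator of Il10, went from 12.4, 17.8 and 16.2 to 46.4, 45.1 and 42.3 CPM, and Tbx21, which encodes the Th1 regulator T-bet, from 48.3, 60.6 and 65.7 to 144, 148 and 138 CPM. None of these 5 genes overlapped between compartments. Smaller rises were those of Irf4 (0.75 ± 0.08), Crem (0.70 ± 0.12), Ikzf3 (0.50 ± 0.10), Runx3 (0.47 ± 0.08, lost with the covariate), Batf (0.42 ± 0.10) and Hif1a (0.22 ± 0.05). The rises of Egr2 (0.30 ± 0.11), Fosl2 (0.40 ± 0.15) and Rbpj (0.53 ± 0.16) were each lost when 1 of several libraries was left out, IL-10 positive 18 among them.

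Of the 11 genes of this list that fell, Id3, an inhibitor of E proteins, went from 79.2, 67.2 and 75.5 to 22.6, 20.2 and 19.5 CPM (-1.83 ± 0.14, log2 ± SE), and Runx1 from 50.4, 50.5 and 44.7 to 20.7, 12.6 and 14.8 CPM (-1.60 ± 0.14). In both genes every positive library lay below every negative one. Zfp36, whose product destabilises cytokine mRNAs, fell by 0.62 on the log2 scale, Junb fell by 0.50, Ets1 by 0.43, Bcl6 by 0.40 and Bach2 by 0.34. Falls of Rora (-0.83 ± 0.31) and Gata3 (-0.29 ± 0.10) were lost without positive library 18 and without other single libraries, and those of Creb1 (-0.28 ± 0.08) and Ikzf1 (-0.19 ± 0.06) without positive library 17; all 4 were also lost with the covariate. Other factors that IL-27 is known to engage were not called: Stat3 stood at 402 ± 25.02 and 381 ± 29.8 CPM (SD, n = 3), and Irf1 at 849.6 ± 65.4 and 864 ± 10.4. Ahr was low, at 1.48 ± 0.399 and 1.19 ± 0.603 CPM.

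The receptor genes for these cytokines moved in both directions. Il6st, the shared chain of the IL-6 and IL-27 receptors, fell from 157, 162 and 166 to 91.5, 69.3 and 76.2 CPM, and Il6ra fell from 80.00, 55.8 and 68.6 to 35.4, 26.2 and 28.4 CPM. Il27ra rose slightly (0.38 ± 0.07, log2 ± SE), Il12rb1, a chain of the IL-12 and IL-23 receptors, rose from 36.5, 38.05 and 35.1 to 92.2, 103 and 99.5 CPM, and Il10ra stood at 145 ± 15.9 and 163 ± 8.34 CPM without a call. Il21, a cytokine that Tr1 cells are known to make, rose from 7.11, 7.76 and 7.97 to 20.04, 28.05 and 21.3 CPM. Cish, a feedback inhibitor induced by STAT5, rose from 2.23, 4.54 and 2.42 to 12.03, 12.2 and 9.31 CPM, while Socs3 (-0.52 ± 0.08) and Socs1 (-0.50 ± 0.12), which restrain STAT signalling, fell.

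**Figure D2:**
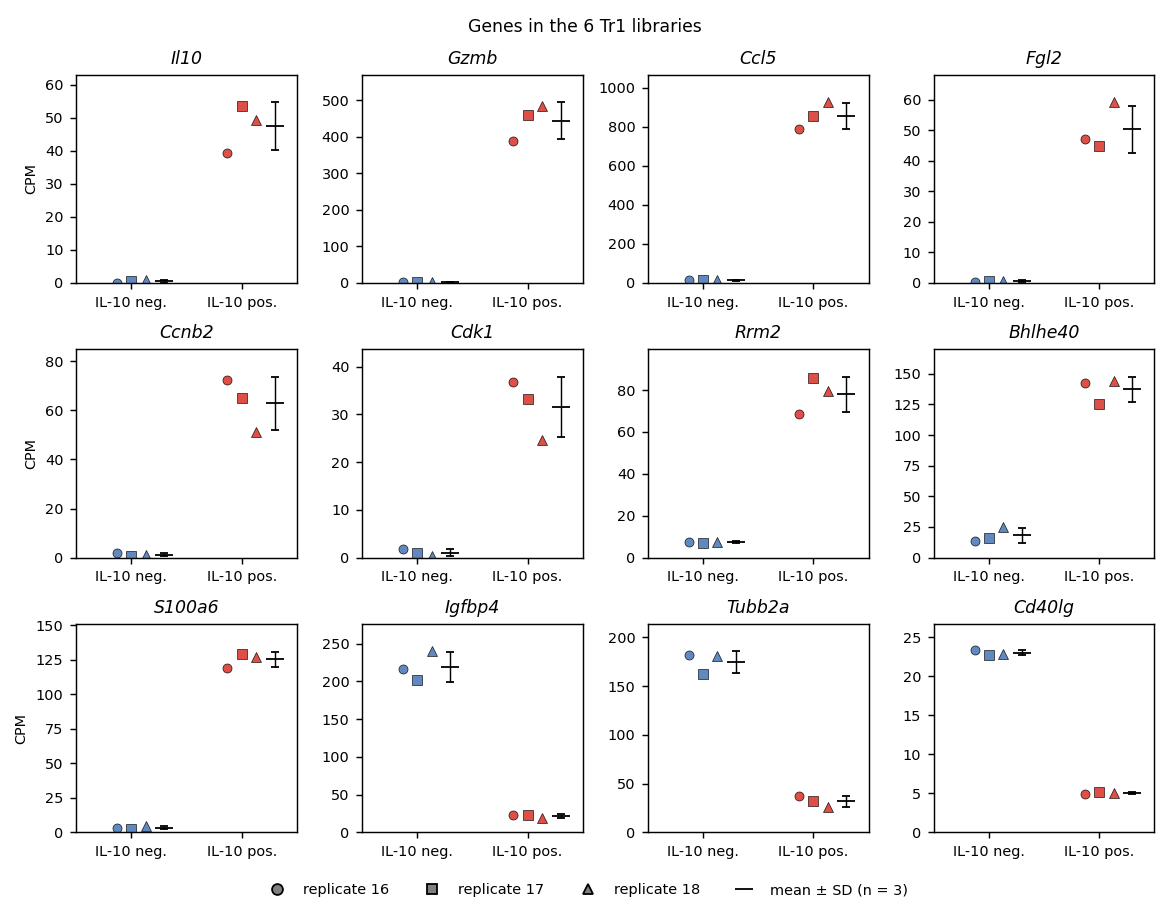
CPM (vertical axes, linear and starting at 0) of 12 genes in the 6 Tr1 libraries; blue symbols are IL-10 negative and red IL-10 positive libraries, symbol shapes mark the title numbers 16, 17 and 18, and bars show the mean and SD of 3 libraries. In each of the 12 genes the compartments do not overlap.

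Genes of mitosis differed widely between the compartments. Of 49 listed genes of G2 and mitosis (cyclins, kinases, spindle and checkpoint proteins), 46 rose (93.9%, against 20.5% of all genes), 1 fell and 2 were not called, with a median log2 fold change of 3.74 against 0.05 over all genes tested. The same counts were reached without IL-10 positive library 18 (46 and 1) and with the covariate (46 and 1). Summed over the list, IL-10 negative libraries held 599 to 623 CPM and positive ones 1980.0 to 2185 CPM. Ccnb2, which encodes cyclin B2, stood at 2.03, 0.568 and 1.14 CPM in negative and 72.1, 65.1 and 51.2 CPM in positive libraries (5.67 ± 0.19, log2 ± SE; edgeR, adjusted p = 1.92e-24). Cdk1, the kinase that drives entry into mitosis, went from 1.83, 0.947 and 0.427 to 36.8, 33.3 and 24.6 CPM. In both genes library 18 was the lowest of the positive libraries and still lay far above every negative one. Nusap1, a microtubule-binding spindle protein, went from 0.812, 0.947 and 0.569 to 57.5, 47.1 and 46.3 CPM, and Cdca8 (borealin, of the chromosomal passenger complex) from 0.812, 0.947 and 0.285 to 32.8, 43.1 and 30.6 CPM. The checkpoint kinase gene Bub1 went from 0.406, 0 and 0 to 19.8, 16.4 and 18.6 CPM, and the motor protein gene Kif4 from 0.203, 0 and 0 to 13.9, 14.2 and 9.53 CPM, both nearly absent from the negative libraries. Mki67 (Ki-67), a common label of cycling cells, was detected in the negative cells too and rose from 7.11, 10.6 and 7.11 to 90.5, 70.3 and 92.4 CPM. The exceptions were Cdc25b, a phosphatase that activates CDK1, which fell by 0.32 on the log2 scale, and Pttg1 and Mybl2, which were not called (-0.15 ± 0.12 and 0.25 ± 0.34).

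DNA replication genes rose as broadly but by less. Of 45 genes of replication and S phase, 39 rose (86.7%) and 0 fell, with a median of 1.08, and the count was 38 without IL-10 positive library 18. Rrm2, the regulated subunit of ribonucleotide reductase, went from 7.51, 7.19 and 7.68 to 68.6, 85.5 and 79.5 CPM, and Uhrf1, which keeps DNA methylation at replication forks, from 0.609, 5.11 and 2.28 to 38.4, 48.5 and 38.3 CPM. The origin-loading factor gene Cdc6 rose by 2.56 ± 0.30 on the log2 scale. Genes of the replicative helicase spanned a wide range, from Mcm5 (2.25 ± 0.11) and Mcm6 (1.25 ± 0.09) to Mcm2 (0.44 ± 0.10) and Mcm4 (0.30 ± 0.07). Pola2 and Pold1, subunits of the replicative polymerases, were not called (0.12 ± 0.11 and 0.27 ± 0.15). Poly-A priming captures replication-dependent histone mRNAs poorly, and near-identical copies may share reads. Of 38 such genes tested 9 rose (5 without both libraries numbered 18) and 0 fell (1 without IL-10 positive library 18). The share that rose, 23.7%, was near the 20.5% of all genes. Hist2h3c2 was at 0 in all 3 negative libraries and at 9.43, 4.41 and 4.65 CPM in the positive ones, at least 34.7-fold higher against a floor of 3 counts over the negative group.

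Genes that hold cells out of the cycle leaned the other way. Of 21 listed inhibitors and quiescence factors, 10 fell (47.6%, against 14.2% of all genes) and 3 rose (14.3%, against 20.5%). The rises were 1 without IL-10 positive library 18, without positive or negative library 17, and when genes with few counts were kept. Cdkn1b, which encodes the CDK inhibitor p27, went from 105, 109.8 and 111 to 68.6, 71.9 and 61.6 CPM, and Rb1 from 38.8, 32.4 and 33.3 to 22.2, 16.2 and 21.9 CPM. The anti-proliferative genes Tob1 (-0.69 ± 0.16) and Btg2 (-0.62 ± 0.07) and the forkhead factor Foxo1 (-0.50 ± 0.10) fell. Cdkn1a, which encodes p21, did the reverse, going from 0.203, 1.70 and 0.427 to 2.83, 5.21 and 3.55 CPM, a fold of 5.11 that became 11.2 without negative library 17.

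Promoters of the mitosis genes held 2 short elements more often than promoters at large. Genes of late cell cycle stages are known to be controlled through a CHR element, searched here as TTTGAA, with CCAAT boxes (CCAAT) nearby; S phase genes through E2F sites (TTTGGCGC, TTTCCCGC, TTTCGCGC or TTTGCCGC). Windows from 250 bases before to 50 after the start, from RefSeq on GRCm38.p6, were found for 40 of the 49 mitosis genes and 35 of the 45 S phase genes, and motifs were matched on both strands. CHR was in 28 of the 40 mitosis windows (70.0%), against 4 of 35 S phase windows (11.4%) and 18.1% of all 27025 promoters in the table (12.4% of the windows found for genes tested). CCAAT was in 29 of the 40 (72.5%), against 57.1% of S phase windows and 37.9% of all, and both elements together in 60.0% of mitosis windows against 7.12% of all. E2F sites showed the reverse, with 13 of 35 S phase windows (37.1%), 1 of 40 mitosis windows (2.50%) and 2.32% of all. If TTCGAA also counted as CHR, 75.0% of mitosis windows and 19.4% of all promoters held one. A match describes these letters and not binding. Members of the 2 lists are known for these elements, so the shares describe the choice of genes and not these libraries. Below are promoters of 3 mitosis genes and 1 S phase gene that were called higher, 280 bases up to 30 past the start, 5′ to 3′ on the gene's strand, with CHR and CCAAT matches (E2F matches in Mcm6) in capitals. Ccnb2 lies at chr9:70421525-70421804 on the minus strand, Cdk1 at chr10:69352883-69353162 on the minus strand, Cdc20 at chr4:118437314-118437593 on the minus strand and Mcm6 at chr1:128359676-128359955 on the minus strand.
Ccnb2: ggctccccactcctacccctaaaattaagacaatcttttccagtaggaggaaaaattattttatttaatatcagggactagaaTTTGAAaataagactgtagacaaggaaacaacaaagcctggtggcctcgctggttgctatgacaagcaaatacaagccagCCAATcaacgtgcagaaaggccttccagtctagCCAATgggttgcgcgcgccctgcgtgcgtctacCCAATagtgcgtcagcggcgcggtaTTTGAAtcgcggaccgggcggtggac
Cdk1: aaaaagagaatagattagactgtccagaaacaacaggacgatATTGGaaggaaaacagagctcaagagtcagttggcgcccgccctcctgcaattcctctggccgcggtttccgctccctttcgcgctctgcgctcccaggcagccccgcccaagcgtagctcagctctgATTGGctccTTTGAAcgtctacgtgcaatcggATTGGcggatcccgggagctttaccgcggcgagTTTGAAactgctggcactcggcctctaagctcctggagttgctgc
Cdc20: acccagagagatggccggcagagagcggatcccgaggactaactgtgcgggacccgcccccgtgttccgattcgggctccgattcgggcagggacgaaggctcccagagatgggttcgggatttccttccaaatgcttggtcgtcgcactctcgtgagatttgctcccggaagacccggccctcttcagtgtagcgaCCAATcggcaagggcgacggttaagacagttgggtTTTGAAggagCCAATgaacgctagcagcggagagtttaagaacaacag
Mcm6: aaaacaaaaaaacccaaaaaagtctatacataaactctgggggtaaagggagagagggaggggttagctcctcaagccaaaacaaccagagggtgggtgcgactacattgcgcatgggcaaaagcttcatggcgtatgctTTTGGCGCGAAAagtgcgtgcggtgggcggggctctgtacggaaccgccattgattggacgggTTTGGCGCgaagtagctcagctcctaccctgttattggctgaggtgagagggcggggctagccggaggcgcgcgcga
In Ccnb2 and Cdk1 there are 2 CHR and 3 CCAAT matches each, in Cdc20, the activator of the anaphase-promoting complex, 1 and 2, and in Mcm6 3 E2F matches, of which 2 overlap. Left in lower case are 1 E2F match in Cdk1 and 2 CCAAT matches in Mcm6. Cdc20 transcripts went from 1.62, 2.84 and 3.56 to 47.9, 46.3 and 43.2 CPM and Mcm6 from 54.6, 42.8 and 44.7 to 99.7, 114 and 122 CPM.

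Cytotoxic granule genes rose. Of 21 cytotoxic granule genes tested, 18 rose (85.7%, against 20.5% of all genes) and 0 fell, with a median log2 fold change of 1.14. Without IL-10 positive library 18, 17 were called higher, and with the covariate 14 were higher and 1 lower. Gzmb, which encodes granzyme B and lies on chromosome 14 from 56258836 to 56262334, stood at 2.44, 1.33 and 2.99 CPM in negative and 388, 458 and 484 CPM in positive libraries, or 7.57 ± 0.18 (SE) on the log2 scale with an adjusted p of 5.96e-29 in edgeR. Its positive libraries differed from each other by far less than they differed from the negative ones. Gzma rose from 8.32, 9.28 and 14.7 to 51.9, 50.3 and 67.8 CPM. The membrane protein gene Nkg7, needed for granule release, rose from 98.7, 87.1 and 109.7 to 592, 629.8 and 639 CPM and the pore-forming Prf1 from 18.1, 22.1 and 23.05 to 74.03, 80.3 and 78.9 CPM. Fasl, a death ligand, rose by 1.35 ± 0.26 on the log2 scale and Ctsw, a granule protease, by 1.14 ± 0.08. Unc13d and Lamp1, general parts of granule fusion, were not called (0.19 ± 0.08 and -0.30 ± 0.21). Ctla2a (2.03 ± 0.08) and Ctla2b (3.25 ± 0.14), near-identical protease inhibitor genes, rose too, and reads between them cannot be assigned with certainty.

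Chemokines that attract T cells and monocytes rose with them. Ccl5 stood at 12.99, 12.3 and 15.4 CPM in negative and 790.1, 855 and 925 CPM in positive libraries (5.97 ± 0.14, log2 ± SE), one of the most abundant of the changed mRNAs. Ccl4 rose from 7.92, 8.71 and 8.25 to 202, 235 and 251 CPM and Ccl3 from 0.203, 1.51 and 0.711 to 25.7, 27.8 and 34.3 CPM. For the 3 genes no library overlapped, and of 9 chemokine genes tested they were the 3 called higher (33.3%, against 20.5% of all genes). Cxcl10, an interferon-induced chemokine, fell (-1.71 ± 0.47), a call lost without both libraries numbered 18 and with the covariate. Fgl2, a fibrinogen-like effector molecule of regulatory T cells, was among the genes with the largest rises, from 0.203, 0.757 and 0.569 to 47.2, 44.9 and 59.2 CPM (6.55 ± 0.29, edgeR, adjusted p = 1.14e-20).

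Of helper programmes, Th1 genes rose most. In that list 15 of 18 rose (83.3%, against 20.5% of all genes) and 1 fell, with a median of 1.85. It shares the 3 chemokines, Fasl, Tbx21, Bhlhe40 and Runx3 with the groups above. Ifng, the Th1 cytokine, rose from 1.42, 1.70 and 0.854 to 10.1, 12.8 and 12.2 CPM, and Hlx, a partner of T-bet, from 0.812, 1.14 and 1.14 to 11.3, 10.02 and 9.97 CPM. The IL-18 receptor chain gene Il18rap rose by 2.88 ± 0.29 on the log2 scale (a fold of 7.36, or 13.7 without negative library 16), while Stat4 (-0.09 ± 0.07) and the chemokine receptor gene Cxcr3 (-0.05 ± 0.12) were not called. Among 14 Th2 genes 0 rose and 3 fell by little (21.4%, against 14.2% of all genes). Those that fell were Gata3, Il4ra (-0.35 ± 0.06) and Ecm1 (-0.38 ± 0.06). Il4, Il13 and Il17a were at 0 in all 6 libraries. Th17 and Ahr-related genes were mostly not called: 5 of 20 were higher (25%, against 20.5% of all genes), or 8 without IL-10 positive library 16. In the same list 1 was lower, or 0 without IL-10 positive library 18. Follicular helper genes split, with 4 of 14 higher (28.6%, against 20.5% of all genes) and 7 lower (50%, against 14.2%). Icos (0.99 ± 0.06) and Pdcd1 (1.90 ± 0.18) rose, whereas Tox (-1.23 ± 0.13), Bcl6 and Pou2af1 (-0.97 ± 0.18) fell.

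Several receptors that restrain T cells were higher. Of 21 co-inhibitory receptor and related genes, 10 rose (47.6%, against 20.5% of all genes), 3 fell and 8 were not called, with a median of 1.48. Tigit went from 15.2, 12.3 and 13.9 to 105, 118 and 120.1 CPM and Entpd1 (CD39), which degrades extracellular ATP, from 2.84, 0.947 and 3.98 to 32.5, 34.9 and 38.3 CPM. Havcr2 (TIM-3) was nearly absent from negative libraries and stood at 5.42, 5.21 and 5.32 CPM in the positive ones. Pdcd1 (PD-1) rose from 4.87, 4.54 and 3.70 to 11.6, 20.03 and 16.4 CPM and Ctla4 by 0.76 ± 0.07 on the log2 scale. Klrk1 (NKG2D), an activating receptor also found on NK cells, went from 5.28, 5.11 and 4.84 to 58.5, 59.7 and 67.6 CPM. The genes that fell were Cd96 (-1.09 ± 0.11), Btla (-0.34 ± 0.07) and Cd200 (-0.46 ± 0.10, lost with the covariate), and Cd5 and Cd274 (PD-L1) were not called.

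Costimulatory and cytokine receptor genes were redistributed. Tnfrsf4 (OX40) rose from 22.1, 14.8 and 18.2 to 104, 113 and 98.8 CPM and Tnfrsf9 (4-1BB) from 14.2, 14.6 and 14.7 to 51.9, 59.9 and 48.97 CPM. Cd40lg, the helper ligand that activates B cells and dendritic cells, fell from 23.3, 22.7 and 22.9 to 4.95, 5.21 and 5.10 CPM (-2.17 ± 0.17, log2 ± SE), and the early activation marker Cd69 fell from 159.8, 213 and 236 to 75.4, 89.9 and 68.7 CPM. In all, 14 of 28 costimulation genes rose (50%, against 20.5% of all genes) and 7 fell (25%, against 14.2%), or 4 with the covariate. Il2ra, the high-affinity IL-2 receptor chain, rose from 14.6, 14.96 and 13.4 to 61.8, 65.9 and 58.9 CPM, whereas the interferon gamma receptor gene Ifngr2 fell from 6.70, 6.25 and 6.26 to 1.65, 1.60 and 1.33 CPM and the TGF-beta receptor gene Tgfbr2 fell (-0.57 ± 0.10). Among homing receptors, the inflammatory chemokine receptor gene Ccr2 rose from 2.23, 2.46 and 2.42 to 24.5, 28.8 and 28.6 CPM and Cxcr6 from 2.64, 2.65 and 1.85 to 19.3, 15.02 and 19.7 CPM. S1pr1, which lets T cells leave lymph nodes, fell from 758, 747 and 799.9 to 427, 409.6 and 413 CPM, and Ccr7 fell by 0.53 on the log2 scale.

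Genes of small calcium-binding proteins, galectins, annexins and the cytoskeleton rose in 27 of 32 cases (84.4%, against 20.5% of all genes) and fell in 2. The median was 1.05, and the counts were the same without IL-10 positive library 18. S100a6 stood at 2.84, 2.65 and 4.55 CPM in negative and 119, 129 and 127 CPM in positive libraries, and S100a4, a marker of effector and memory T cells, at 0.609, 0 and 0 and 13.7, 9.62 and 9.97 CPM. Lgals3 (galectin-3) rose from 9.34, 6.25 and 8.68 to 91.7, 106 and 109 CPM, and Myo1f, a motor protein of blood cells, from 13.4, 14.01 and 13.1 to 188, 201 and 203 CPM. The compartments were far apart in each of these 4 genes. Vim (2.67 ± 0.06), an intermediate filament gene, and Lgals1 (2.31 ± 0.08) also rose. The exception among tubulins was Tubb2a, on chromosome 13 from 34074278 to 34078008, which fell from 182, 162 and 181 to 37.02, 32.1 and 26.4 CPM (-2.46 ± 0.11, log2 ± SE) while Tubb5 (0.78 ± 0.06) and Tuba1b (1.07 ± 0.06) rose. Integrin and adhesion genes rose in 15 of 28 cases (53.6%, against 20.5% of all genes) and fell in 5 (17.9%, against 14.2%), or 3 with the covariate. Emp1, a membrane glycoprotein gene, rose from 2.03, 3.03 and 2.42 to 19.8, 16.8 and 24.2 CPM.

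Genes typical of resting T cells, naive or memory-like, fell. Of 36 tested, 23 fell (63.9%, against 14.2% of all genes) and 4 rose, with a median log2 fold change of -0.38, and 22 fell without IL-10 positive library 18. Igfbp4, an insulin-like growth factor binding protein of naive T cells, went from 216, 202 and 240.0 to 22.6, 22.8 and 18.4 CPM (-3.36 ± 0.11; edgeR, adjusted p = 6.23e-25). Dapl1 went from 13.4, 11.5 and 11.2 to 0.943, 0.401 and 0.222 CPM, the largest fall of the list. Bcl2, a survival gene, went from 62.9, 63.6 and 58.5 to 16.7, 16.6 and 14.8 CPM, and Tcf7, which encodes the stem-like factor TCF1, from 1501, 1586 and 1621 to 681, 714 and 646 CPM. Each of these 4 lay lower in every positive library. Lef1 (-0.69 ± 0.06) and Satb1 (-0.32 ± 0.05) fell by less, and Il7r was not called (0.15 ± 0.14). Outside the list, St8sia6, a sialyltransferase gene, fell from 29.8, 26.9 and 23.6 to 3.30, 1.40 and 3.55 CPM, Ms4a4c from 112, 113 and 116 to 18.9, 23.6 and 21.9 CPM and Phlpp1, a phosphatase that restrains AKT, from 13.6, 18.4 and 22.2 to 4.48, 3.21 and 2.88 CPM. Jag2, a Notch ligand (-2.22 ± 0.36), Zscan10 (-2.47 ± 0.39), Clec2i (-2.10 ± 0.23), Rragd (-1.99 ± 0.41) and Rundc3b (-1.95 ± 0.49) fell as well. H2-Ob and H2-Oa, which form a modulator of peptide loading on class II molecules, fell too (-2.21 ± 0.17 and -1.49 ± 0.26).

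Within the BCL-2 family of cell survival genes, 9 of 21 rose (42.9%, against 20.5% of all genes) and 2 fell (9.52%, against 14.2%). With the covariate 6 rose and 1 fell. Against the fall of Bcl2, Bcl2l1 (BCL-XL) went from 10.2, 10.98 and 10.4 to 26.9, 25.6 and 22.2 CPM and Bcl2a1b from 12.2, 13.1 and 13.8 to 43.6, 43.9 and 48.5 CPM; the Bcl2a1 copies are close paralogs and share reads. Mcl1 was not called (-0.16 ± 0.07).

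Genes induced by T cell receptor signals had no common direction. Of 38 receptor signalling genes 15 rose (39.5%), or 6 when genes with few counts were kept, and 13 fell (34.2%), or 8 with the covariate. Of 35 activation-induced factors 12 rose (34.3%) and 12 fell (34.3%). The rises were 7 without IL-10 positive library 18 or 17 and 6 with the covariate. Over all genes 20.5% rose and 14.2% fell. The AP-1 genes Fos, from 233, 251 and 285 to 110.3, 143 and 133 CPM, Fosb (-1.69 ± 0.20) and Jun (-0.86 ± 0.07) fell, as did the NF-kB inhibitors Nfkbia (-0.78 ± 0.07) and Tnfaip3 (-0.82 ± 0.11). These AP-1 genes are also known to respond to cell handling. Of 18 dissociation and heat shock genes 8 fell (44.4%, against 14.2% of all genes). In the same list 5 rose (27.8%, against 20.5%), or 2 without IL-10 positive library 18. Irf8 rose (0.83 ± 0.08). In the receptor pathway Malt1 rose from 89.3, 101 and 86.2 to 183, 169 and 228 CPM while Rasgrp1, which links the receptor to RAS, fell from 289, 281 and 293 to 170.2, 126 and 145 CPM, and the CD3 genes Cd3g (0.28 ± 0.06) and Cd3d (-0.08 ± 0.06, not called) barely moved.

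Interferon-stimulated genes rose in 20 of 48 cases (41.7%, against 20.5% of all genes) and fell in 4 (8.33%, against 14.2%). Their median log2 fold change was 0.16. Without IL-10 positive library 18, 15 and 3 were called, and with the covariate 13 and 1. Ifitm1 went from 0, 0 and 0.142 to 13.9, 2.60 and 5.98 CPM and Isg15 from 4.87, 2.27 and 3.56 to 9.67, 6.81 and 6.87 CPM, the latter call lost with the covariate. Cmpk2 (1.18 ± 0.15) and Gbp2 (0.53 ± 0.08) rose, and Irf7 (-0.20 ± 0.12) and Stat2 (-0.10 ± 0.09) were not called. Copies within the Ifit and Gbp families may share reads.

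Metabolic genes rose in several pathways, by modest amounts. Of 24 cholesterol synthesis and uptake genes, 17 rose (70.8%, against 20.5% of all genes) and 0 fell, with a median of 0.61. Without IL-10 positive library 18 the counts were 16 and 0. Idi1, which isomerises the isoprene unit, went from 8.93, 7.38 and 7.97 to 36.1, 40.1 and 42.3 CPM, and Sqle, which oxidises squalene, from 4.47, 7.19 and 8.39 to 23.6, 29.05 and 26.1 CPM. Hmgcs1, an early enzyme of the pathway, rose by 0.58 ± 0.08 on the log2 scale, while Insig1 and Dhcr7 were not called (0.20 ± 0.11 and 0.27 ± 0.13). The sterol element TCACNCCAC was in the window of 1 of the 17 cholesterol genes that had one, Hmgcs1, and in 1.22% of all promoters. Glycolysis genes rose in 11 of 24 cases (45.8%, against 20.5% of all genes). The rises were led by the lactate transporter gene Slc16a3, from 12.6, 11.9 and 14.2 to 36.5, 32.7 and 36.8 CPM, and by Pgk1 (0.96 ± 0.07). Pdk1, which holds pyruvate out of mitochondria, fell from 223, 232 and 241 to 127, 112 and 119 CPM. Of 67 genes of oxidative phosphorylation 45 rose (67.2%, against 20.5% of all genes) and 2 fell, with a median of only 0.27. The rises were 29 without IL-10 positive library 17, positive library 18 or negative library 17, and 23 when genes with few counts were kept. Serine synthesis and amino acid response genes rose in 17 of 34 cases (50%, against 20.5% of all genes), or in 11 when genes with few counts were kept. Among them were Psat1, from 15.4, 9.28 and 20.5 to 44.8, 46.9 and 42.1 CPM, and Asns (2.95 ± 0.71, a fold of 7.75 that became 16.8 without negative library 18). Metallothionein genes Mt1, Mt2 and Mt3 rose from near 0, Mt1 from 0, 0.568 and 0.142 to 7.07, 10.6 and 12.4 CPM.

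Ribosomal protein genes showed a small fall that depended on the libraries. In the 30-library fit 36 of 78 fell (46.2%, against 14.2% of all genes) and 3 rose, with a median of -0.17. Without IL-10 positive library 18, 40 fell and 1 rose. Without negative library 18, 17 fell, and without the filter on low counts 66. With the covariate 0 fell, 5 rose and the median was 0.07. Summed over the list, negative libraries held 75120.0 to 89290.0 CPM and positive ones 70730.0 to 76870.0 CPM, with overlap. ER folding genes rose in 16 of 28 cases (57.1%, against 20.5% of all genes), or in 10 when genes with few counts were kept. Atf6 was among them (1.40 ± 0.12), and the master chaperone gene Hspa5 was not called (-0.11 ± 0.06).

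**Figure D3:**
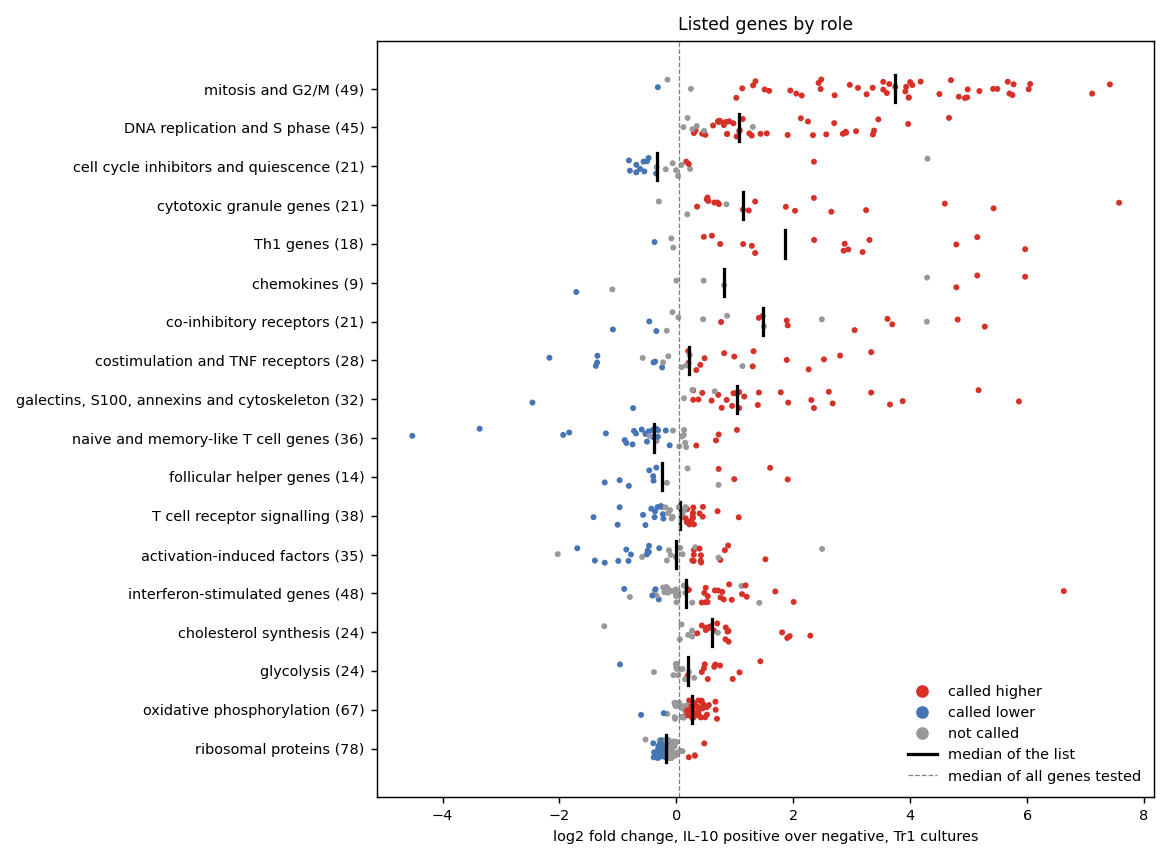
Fitted log2 fold change of IL-10 positive over negative Tr1 libraries (horizontal axis) of each tested gene in 18 lists (rows, number tested in brackets); red and blue points are called higher and lower, grey points not called, black bars the list medians. The mitosis list has its median at 3.74, and the ribosomal protein list at -0.17; the dashed line is the median of all genes tested, 0.05.

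On the scale of TPM, which corrects for gene length, the 2 largest gains in transcript share were those of Ccl5, from 61.6 ± 3.37 to 3692 ± 106 TPM (SD, n = 3), and of the actin gene Actg1, from 4076 ± 54.4 to 7603 ± 207 TPM. Ly6c2 and Ly6a, surface antigens of activated T cells, rose to 4477 ± 39.9 and 5782 ± 160.5 TPM from 1329 ± 69.8 and 3298 ± 10.04, and the actin-binding thymosin gene Tmsb4x rose from 3441 ± 190.4 to 5936 ± 224 TPM. Nkg7 was the granule gene with the largest gain, from 264 ± 14.6 to 1582 ± 24.2 TPM. The largest loss was that of Tpt1, a translationally controlled tumour protein gene, from 11519 ± 502 to 7650.3 ± 90.99 TPM. Of Il10 itself there were 70.2 ± 8.96 TPM in IL-10 positive libraries.

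Markers of other cells ranged from near 0 to levels above that of Il10. Of the B cell list 0 of 9 genes were called, with 7.106 to 9.655 CPM summed in negative and 10.22 to 17.73 CPM in positive libraries. The antigen-presenting and class II list summed to 114.9 to 141.3 CPM in negative and 80.88 to 92.66 CPM in positive libraries, lower without overlap. In it 1 of 10 genes was called higher (10%, against 20.5% of all genes) and 2 lower (20%, against 14.2%), H2-Ob and H2-Oa. The stromal list summed to 203 to 231.5 and 166 to 182.9 CPM, with Epcam called higher and Pecam1, an adhesion gene also used by T cells, lower; Pecam1 stood at 228, 208 and 199 and 155, 169.9 and 156 CPM. Of 11 myeloid genes tested 3 rose (27.3%, against 20.5% of all genes). They were Itgam, Itgax (lost with the covariate) and Cst3 (0.23 ± 0.09, lost without any 1 of the 6 libraries). The list summed to 67.61 to 72.85 and 93.13 to 94.15 CPM, while the defining Lyz2 and Tyrobp stood at 0 ± 0 and 0.145 ± 0.127 CPM in positive libraries. Of 6 NK cell genes 4 rose (66.7%, against 20.5% of all genes). They were Klrk1, Gzma, Klrd1 and Klri2, the last lost with the covariate and without negative library 17 or library 18 of either compartment. The list summed to 27.82 to 39.98 and 154.8 to 191.9 CPM, and Klre1 was at 0 in all 6 libraries. The CD8 genes rose, Cd8a (lost with the covariate) from 3.86, 4.73 and 1.57 to 9.20, 11.2 and 15.95 CPM and Cd8b1 from 20.1, 18.9 and 25.8 to 37.96, 31.4 and 35.5 CPM, against 662 ± 56.6 and 681 ± 21.6 CPM of Cd4. Cytotoxic genes and these CD8 and NK genes moved together, and the part of CD8, NK or feeder spleen cells in the result was not tested. Among regulatory T cell genes other than Foxp3, 5 of 8 rose, including Il2ra and Nrp1 (0.87 ± 0.16), and Ikzf4 (-1.39 ± 0.20) and Gpr83 (-0.71 ± 0.19) fell.

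Was the difference between compartments larger in Tr1 than in the other cultures? The Tr1 difference was tested against the mean of the same difference in Th1, Th2, Th17 and pTh17 within the same fit. It was called for 2800 of 12611 genes (22.2%), 1822 above (14.4%) and 978 below (7.76%) that mean. With the covariate 899 were above and 199 below, and when genes with few counts were kept 1493 were above and 1601 below; without the pTh17 culture in the mean the counts were 1637 and 1397. Of the mitosis genes, 44 of 49 were above the mean (89.8%) and 1 below, with a median difference of 2.41 on the log2 scale. Ccnb2 differed by 5.67 in Tr1 and by 0.92 in Th1, -0.10 in Th2, 3.02 in Th17 and 0.31 in pTh17, 1.04 on average, a gap of 4.63 ± 0.21 (SE; edgeR, adjusted p = 1.63e-19). The gaps of Nusap1 (4.48 ± 0.27) and Cep55 (4.70 ± 0.44) were of the same order, both with mean levels below 1 CPM in Tr1 negative libraries. The other cultures were not alike: Th17 had rises of 3.96 for Nusap1 and 3.36 for Cep55, against 0.25 and 0.21 in Th2, and the Tr1 difference was not tested against Th17 alone. Replication genes showed less of it, with 16 of 45 above and 3 below, beside 14.4% and 7.76% of all genes.

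Outside the cell cycle, Gzmb (4.99 ± 0.89, SE, edgeR adjusted p = 4.81e-05) and Fgl2 (4.60 ± 0.59, adjusted p = 1.13e-07) had gaps of similar size. Of 21 cytotoxic genes 12 were above the mean of the other cultures and 0 below, beside 14.4% and 7.76% of all genes. Ccl5 (3.56 ± 0.39), S100a6 (3.89 ± 0.16), Lgals3 (2.69 ± 0.12), Entpd1 (2.31 ± 0.24), Tigit (1.48 ± 0.14), Bhlhe40 (1.94 ± 0.13), Tbx21 (1.29 ± 0.16) and Nfil3 (1.84 ± 0.31, lost with the covariate) were above that mean as well. A gap to the mean does not set Tr1 apart from each culture: Ccl5 differed by 5.64 in Th1 against 5.97 in Tr1, and by 0.17 in Th17. Lgals3 differed by 2.94 and Tigit by 2.56 in Th1, against 3.65 and 3.05 in Tr1, and Bhlhe40 by 1.91 in Th17 against 2.86. For Il10 the gap was 1.59 ± 0.50 (edgeR, adjusted p = 0.0187), a call lost without Tr1 negative library 16 or 17, without the Th2 or the Th17 culture and with the covariate. For Maf and Prdm1 the gaps of 0.40 ± 0.15 and 0.79 ± 0.32 did not pass the threshold, but did in DESeq2. Genes whose difference in Tr1 was below that mean included Tubb2a (-2.40 ± 0.12), Cd40lg (-2.22 ± 0.18), Cxcr1 (-2.51 ± 0.32), Jag2 (-2.08 ± 0.40, lost with the covariate), Pkp4 (-1.50 ± 0.36), Runx1 (-1.45 ± 0.15) and Bcl2 (-1.35 ± 0.12). Jag2 and Cxcr1 were lower in IL-10 positive cells of Th17 too (-2.13 and -2.38), and Bcl2 in those of Th1 and Th2 (-1.03 and -1.43). For Cd81, a tetraspanin, the difference was -1.38 ± 0.10 in Tr1 and 0.49 on average elsewhere, and for Lif, a cytokine of the IL-6 family, -1.18 ± 0.23 and 0.90. Abca1 (-1.74 ± 0.31), Nmt2 (-1.69 ± 0.28) and Rora (-1.61 ± 0.33) were below the mean too; all 3 lost both calls with the covariate. Of 36 naive T cell genes 21 were above the mean and 5 below, beside 14.4% and 7.76% of all genes. For S1pr1 the difference was -0.88 in Tr1 and -1.44 on average elsewhere. Of the 28 ER folding genes 15 were below the mean and 1 above, beside 7.76% and 14.4% of all genes.

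**Figure D4:**
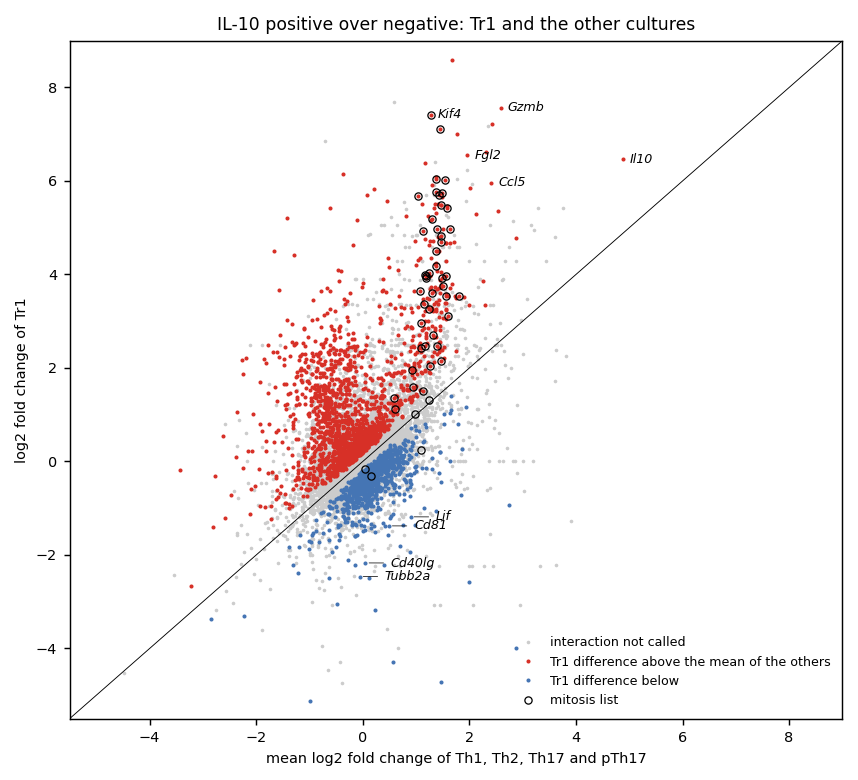
Log2 fold change of IL-10 positive over negative in Tr1 (vertical axis) against the mean of the same difference in Th1, Th2, Th17 and pTh17 (horizontal axis) for each gene tested; colours mark the genes whose gap passed the threshold, circles the mitosis list and the line equal values. Of the 49 mitosis genes, 44 passed above the line, and Tubb2a and Cd40lg stand below it.

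How many genes set IL-10 positive library 18 apart from its replicates was not counted. Of 4377 calls between compartments, 3417 stayed without positive library 18, 3480 without positive library 17 and 3765 without positive library 16. Genes highest in library 18 against libraries 16 and 17 were sought among those with a mean of at least 20 CPM over the 3 positive libraries. They included the vomeronasal receptor gene Vmn1r132, the receptor pseudogene Vmn1r-ps79, Frmd4b and the interferon-induced Ifit3. Frmd4b stood at 28.3, 17.4 and 40.99 CPM in positive libraries 16, 17 and 18, and Ifit3 at 20.3, 16.6 and 32.1 CPM. Amd1 and Amd2, near-identical copies between which reads are divided by estimate, were among the lowest and highest, at 77.1, 66.7 and 0 and 6.84, 20.03 and 91.7 CPM. For the mitosis and cytotoxic genes library 18 agreed in direction, as the values of Cdk1, Gzmb, Ccl5 and S100a6 above show. The edgeR estimate of spread beyond counting error was 10.62% in the positive and 9.642% in the negative libraries, and 10.13% in the positive ones without library 18.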

How the data were processed

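The authors deposited, per the file headers, 1 RSEM gene table per library with an expected count and a TPM for each of 23420 genes; RSEM and the mouse build mm10 are given in the submitters' processing notes, and its version and annotation were not given in the sources used here. Per the labels' protocols libraries were poly-A primed by an adapted SMART-Seq2 method, and no molecular identifiers or strand use are stated. Expected counts were rounded, filtered with filterByExpr (12611 genes kept) and scaled by TMM, and edgeR 4.0.16 (R 4.3.3) fitted 1 mean per group over 30 libraries by quasi-likelihood, with Benjamini-Hochberg adjustment over all genes tested and calls at 0.05. CPM uses the TMM-scaled total. TPM was used only for levels. Alternatives were DESeq2 1.42.0, limma 3.58.1 voom, other filters, scalings and libraries left out. The fit was tested on simulated data.

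The comparison and gene lists were chosen with earlier results of these data known. Genes were named by rule: Il10, Thy1, Foxp3 and regulators of Il10; the 14 highest and 14 lowest separated calls above 5 CPM; the 8 largest TPM changes each way; the 10 largest gaps to the other cultures each way; up to 4 called and 2 uncalled members per list; and genes apart in IL-10 positive library 18. The 14 highest and 14 lowest also had to stay called without IL-10 positive library 18. Their stability without that library was therefore fixed by selection. Of 2898 genes that met this rule, 156 were passed over for their gene type. Not every gene named by rule is printed, and other list members were named after their values were seen. Promoters come from RefSeq (GRCm38.p6). Some genes of the lists are counted but not reported here by name.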

Additional observations from a re-analysis of the deposited data

Results flagged for a closer look

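For 24 named genes the difference between IL-10 positive and negative cells in Tr1 differed from the mean of the same difference in Th1, Th2, Th17 and pTh17, by the interaction test in edgeR over all 30 libraries. The gaps, on the log2 scale, were positive for Gzmb (4.99), Cep55 (4.70), Ccnb2 (4.63), Fgl2 (4.60), Nusap1 (4.48), S100a6 (3.89), Ccl5 (3.56), Lgals3 (2.69), Entpd1 (2.31), Bhlhe40 (1.94), Nfil3 (1.84), Il10 (1.59), Tigit (1.48) and Tbx21 (1.29). They were negative for Cxcr1 (-2.51), Tubb2a (-2.40), Cd40lg (-2.22), Jag2 (-2.08), Abca1 (-1.74), Nmt2 (-1.69), Rora (-1.61), Pkp4 (-1.50), Runx1 (-1.45) and Bcl2 (-1.35). With the summed olfactory and vomeronasal level as a covariate the gaps of Il10, Nfil3, Jag2, Abca1, Nmt2 and Rora no longer passed, and those of the other 18 genes did.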

How the results depend on the processing

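Alternatives named here as the covariate (olfactory and vomeronasal level) were chosen after seeing the data. Of the comparison of IL-10 positive with negative Tr1 cells (2591 higher, 1786 lower), leaving out 1 Tr1 library at a time gave 2000 to 2553 higher and 1433 to 1664 lower, and no filter on low counts 2058 and 2340. With the covariate 1834 were higher and 957 lower. Of the gap to the other cultures (1822 above, 978 below), leaving out 1 Tr1 library gave 1395 to 1749 and 736 to 993, no filter 1493 and 1601, leaving out both libraries numbered 18 gave 1175 above, and the covariate 899 and 199. Over 217 named genes and these alternatives no called change reversed its direction. Of 4108 results for these genes, gaps to the other cultures included, 95 lost their call and 34 gained one. Many of these genes were named because their calls were large, some also because they stayed called without IL-10 positive library 18. The lack of reversals therefore says little of genes at large. Over all genes tested, 1 called gene changed sign without IL-10 positive library 18.

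Same-numbered libraries showed no clear shared deviation from their group means, with correlations of 0.025, 0.020 and -0.046. With 3 libraries per group this cannot decide whether the title numbers pair the samples. With the number as a replicate block the fit over 30 libraries called 2548 higher and 1767 lower, 4169 of them shared with the fit without it, and 1759 above and 973 below for the gap. In the 6 Tr1 libraries alone it called 1723 higher and 1533 lower with the block, and 1851 and 1649 without it.

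Folds of genes with few counts in 1 compartment moved by over 1.5 times when 1 library was left out: Cdk1 from 31.4 to 47.2 without negative library 16, Cep55 from 67.7 to 168 and Uhrf1 from 15.6 to 26.1 without negative library 17, and Dapl1 from 22.9 to 36.4 times lower without positive library 16. Larger moves came without negative library 16, for S100a4 from 58.05 to 704.4, Bub1 from 138.3 to 1164 and Kif4 from 170.7 to 803.6. Without negative library 18, Ifitm1 moved from 98.81 to 461, and S100a4, Bub1 and Kif4 fell to 35.57, 86 and 110.6. Expected counts without molecular identifiers limit what can be said of genes at 1 to 3 counts in a compartment. The compartments differ in genes detected and in the olfactory and vomeronasal level, which cannot be told apart from the IL-10 sort in these 6 libraries.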

Other observations

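Cytokine genes as a list moved both ways: 10 of 34 rose (29.4%, against 20.5% of all genes) and 7 fell (20.6%, against 14.2%). Without both libraries numbered 18, 4 fell, and with the covariate 3. Lif, a cytokine of the IL-6 family, fell from 7.11, 16.1 and 10.5 to 4.01, 5.61 and 5.10 CPM, and Tnfsf8 (CD30 ligand) from 105, 105 and 108 to 37.7, 42.9 and 33.2 CPM. Both lay lower in every positive library.

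Promoters of interferon-stimulated genes held the interferon element (GAAA, any 2 bases, GAAA; either strand, 250 bases before to 50 after the start) in 23 of 38 windows (60.5%), against 3.49% of all promoters, and in 11 of the 15 windows of those called higher (73.3%). Genes of that list are known for the interferon element, so these shares follow from the choice of genes and not from these libraries. CCAAT was in 15 of 17 windows of cholesterol genes (88.2%), against 37.9% of all.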
